A study of Mus musculus with 5 samples.

Results

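The T-box factor genes described here are 10 of 21000 protein-coding genes with a curated start site, chosen by name: Tbx1, Tbx2, Tbx3, Tbx4, Tbx5, Tbx6, Tbx18, Tbx20, T and Eomes. A peak was assigned to a member where the gene name deposited beside it was that member, which took 51 of 89451 peaks in the 3 lists. The T-box factors are a family of transcription factors that share a DNA-binding domain, the T-box, named after the mouse gene T (Brachyury). They read short DNA sites built around AGGTGT, and their levels in neighbouring cells set much of the plan of the early heart. T and Eomes act in the primitive streak and mesoderm before cardiac cells are set aside, Tbx5, Tbx20, Tbx1 and Tbx18 mark different progenitor fields, and Tbx2 and Tbx3 hold back chamber genes in the atrioventricular canal and the conduction system.

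The 3 lists came from ChIP-seq, sequencing of DNA pulled down with an antibody, in cardiac progenitor (CP) cells differentiated from 46C mouse embryonic stem cells. The groups were hnRNPA1 ChIP in Zhx1-KO CP cells, hnRNPA1 ChIP in 46C-Ctrl CP cells, and ZHX1 ChIP in 46C-Ctrl CP cells. All carry the 46C background, and the knockout was made by guides at the start and the stop of the Zhx1 gene. How many knockout lines the Zhx1-KO library came from was not given in the sources used here, and peak lists cannot check the CP identity of the cells against its markers. Zhx1 is a protein with zinc fingers and homeoboxes, and hnRNPA1 is an RNA-binding protein that also comes down with chromatin. The comparison asks where hnRNPA1 was found near these genes with and without Zhx1, and where ZHX1 itself was found.

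Each group had 1 library, so no spread between replicates could be had and no test was made. The Zhx1-KO hnRNPA1 list held 51545 peaks, the 46C-Ctrl hnRNPA1 list 14662 and the 46C-Ctrl ZHX1 list 23244. The lists give positions and names but no heights, and the read depth behind them is unknown, so the main counts below stand beside the same count over the whole list. Intervals cover counting error only. The knockout label could not be checked from the lists, since the Zhx1 gene (chromosome 15, 58047003 to 58076541) had 0 peaks in the Zhx1-KO hnRNPA1 list and also 0 in the 46C-Ctrl hnRNPA1 list, against 1 in the 46C-Ctrl ZHX1 list.

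Most T-box peaks came from Zhx1-KO cells. The members were named by 34 hnRNPA1 peaks in Zhx1-KO cells, 7 hnRNPA1 peaks in 46C-Ctrl cells and 10 ZHX1 peaks in 46C-Ctrl cells. The hnRNPA1 count was 4.86 times as high in Zhx1-KO as in 46C-Ctrl cells (exact interval 2.12 to 13.0), while the full lists differed by 3.52 times (3.45 to 3.58). The interval for the members contains the value for the full lists. As a share of its list, this came to 0.0660% in Zhx1-KO hnRNPA1 (Wilson interval 0.0472 to 0.0922%), 0.0477% in 46C-Ctrl hnRNPA1 (0.0231 to 0.0985%) and 0.0430% in 46C-Ctrl ZHX1 (0.0234 to 0.0792%). The 3 intervals overlap. At least 1 peak was named for 7 of 10 members in the Zhx1-KO hnRNPA1 list, where 60.1% of all protein-coding genes were named. It was 3 of 10 in the 46C-Ctrl hnRNPA1 list, beside 32.6% of all genes, and 7 of 10 in the 46C-Ctrl ZHX1 list, beside 42.2% of all genes. The counts for both hnRNPA1 lists were near the background. The ZHX1 count was higher than its background, with 1 peak each at 5 of the 7 genes. With only 10 genes and no interval for these counts, that difference was not tested. The ZHX1 count dropped to 4 of 10 when its list was limited to the 14662 widest peaks and to 2 of 10 for peaks of at least 300 bp. The share of all genes named under these settings is not given here, so these lower counts cannot be set against a background. Members also had longer territories, the stretches nearest to their starts, with a median of 66.1 kb against 42.5 kb over all protein-coding genes. Per length of territory, ZHX1 peaks were about as frequent at members as over the genome (8.73 against 8.78 per Mb). Within 100 kb of a member gene the ZHX1 value was 12.9 per Mb.

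**Figure D1:**
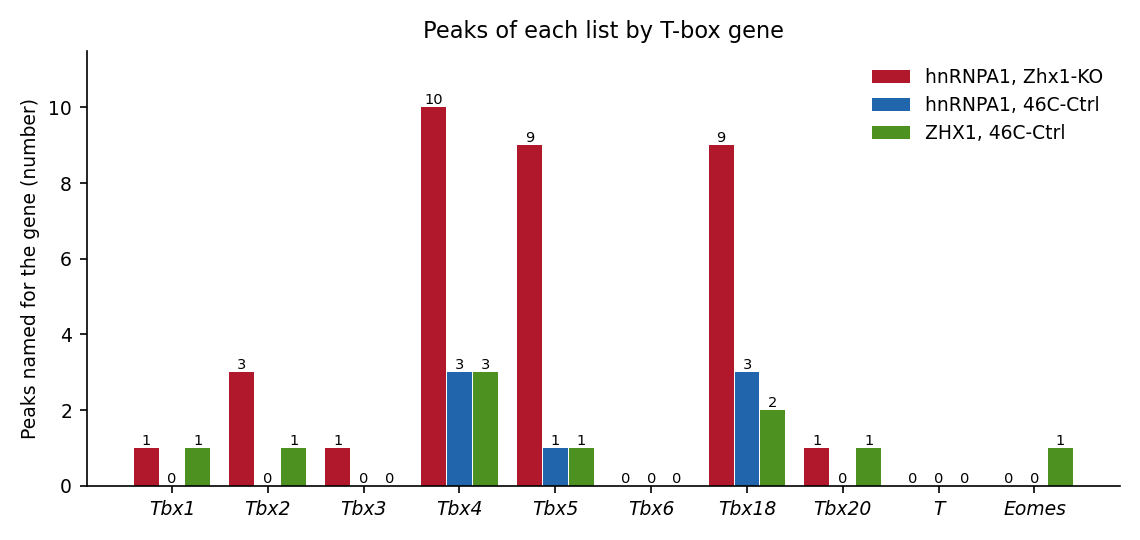
Number of peaks named for each of the 10 T-box genes (vertical axis, peaks) in Zhx1-KO hnRNPA1 (red), 46C-Ctrl hnRNPA1 (blue) and 46C-Ctrl ZHX1 (green), 1 library each. Tbx4, Tbx5 and Tbx18 carry 41 of the 51 peaks, and T and Tbx6 carry none.

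The peaks were concentrated in a few members. Tbx4, a factor of the hindlimb and lung bud, was named by 10 peaks in Zhx1-KO hnRNPA1, 3 in 46C-Ctrl hnRNPA1 and 3 in ZHX1. Tbx5, the factor of the first heart field and forelimb, was named by 9 peaks in Zhx1-KO hnRNPA1, 1 in 46C-Ctrl hnRNPA1 and 1 in ZHX1. Tbx18, a factor of the sinus horns and epicardium, was named by 9 in Zhx1-KO hnRNPA1, 3 in 46C-Ctrl hnRNPA1 and 2 in ZHX1. Together these genes held 41 of the 51 peaks. Their territories were long, at 101 kb for Tbx4, 142 kb for Tbx5 and 535 kb for Tbx18, of 1146 kb over all 10 members. Over all protein-coding genes, 3.98% were named by at least 9 peaks of the Zhx1-KO hnRNPA1 list. The median over the 10 members was 1 peak per gene in Zhx1-KO hnRNPA1, 0 in 46C-Ctrl hnRNPA1 and 1 in ZHX1. Over all genes it was 1 in Zhx1-KO hnRNPA1, 0 in 46C-Ctrl hnRNPA1 and 0 in ZHX1.

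By deposited name, the other members held few peaks. Tbx2 was named by 3 peaks in Zhx1-KO hnRNPA1, 0 in 46C-Ctrl hnRNPA1 and 1 in ZHX1. Tbx1 (pharyngeal mesoderm and outflow tract) and Tbx20 (chamber myocardium and valves) had 1 peak each in Zhx1-KO hnRNPA1 and in ZHX1, and 0 in 46C-Ctrl hnRNPA1. Tbx3 was named by 1 Zhx1-KO hnRNPA1 peak alone, and Eomes by 1 ZHX1 peak alone. T and Tbx6, a factor of the presomitic mesoderm, were named in none of the 3 lists.

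The sequences below show the overlap of lists at Tbx2, the nearest approach of the 2 hnRNPA1 lists at Tbx4, and peaks of each list at Tbx5. They were read from GRCm38, plus strand. At Tbx2 the Zhx1-KO hnRNPA1 peak (chr11:85833340-85833591) and the ZHX1 peak (chr11:85833519-85833903) shared 73 bp, printed in capitals. This was the only overlap of any T-box member peak with a peak of another list. The Zhx1-KO peak ran over the end of exon 1 (which ends at 85833501) into intron 1, and the shared bases lay in intron 1.
Tbx2, Zhx1-KO hnRNPA1 peak: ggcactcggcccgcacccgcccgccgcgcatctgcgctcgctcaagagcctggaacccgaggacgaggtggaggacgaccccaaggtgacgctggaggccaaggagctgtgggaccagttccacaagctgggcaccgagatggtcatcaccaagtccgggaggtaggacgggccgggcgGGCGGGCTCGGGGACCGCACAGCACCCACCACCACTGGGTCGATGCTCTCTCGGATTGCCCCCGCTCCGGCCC

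Upstream of Tbx4, a Zhx1-KO hnRNPA1 peak (chr11:85863536-85863776) lay 258 bp after a 46C-Ctrl hnRNPA1 peak (chr11:85863049-85863277), the shortest distance between the 2 hnRNPA1 lists at any member. The capitals mark TAGGG, the DNA letters of the core RNA site of hnRNPA1, with 1 copy in the Zhx1-KO peak and 2 in the 46C-Ctrl peak.
Tbx4 upstream, Zhx1-KO hnRNPA1 peak: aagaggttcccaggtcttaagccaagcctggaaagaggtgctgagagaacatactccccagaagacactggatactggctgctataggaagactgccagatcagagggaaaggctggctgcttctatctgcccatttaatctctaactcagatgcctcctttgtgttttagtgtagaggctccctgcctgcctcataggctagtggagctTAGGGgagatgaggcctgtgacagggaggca
Tbx4 upstream, 46C-Ctrl hnRNPA1 peak: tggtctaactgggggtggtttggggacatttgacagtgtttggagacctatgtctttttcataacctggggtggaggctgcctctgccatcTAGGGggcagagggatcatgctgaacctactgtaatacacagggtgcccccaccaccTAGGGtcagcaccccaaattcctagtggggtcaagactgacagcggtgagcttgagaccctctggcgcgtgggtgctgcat

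The longer T-box site AGGTGTGA was found in 1 member peak, a Zhx1-KO hnRNPA1 peak 47.4 kb downstream of the nearest Tbx4 start (chr11:85944079-85944339), with the site in capitals.
Tbx4 downstream, Zhx1-KO hnRNPA1 peak: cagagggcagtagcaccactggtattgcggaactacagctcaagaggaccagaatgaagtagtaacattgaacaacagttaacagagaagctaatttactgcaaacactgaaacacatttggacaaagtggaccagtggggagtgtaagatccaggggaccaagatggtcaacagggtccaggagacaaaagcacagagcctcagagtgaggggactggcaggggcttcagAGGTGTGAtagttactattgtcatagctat

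Around Tbx5 the lists did not meet. The peaks shown next are a Zhx1-KO hnRNPA1 peak (chr5:119920223-119920446, downstream), the lone 46C-Ctrl hnRNPA1 peak (chr5:119870831-119871053, in an intron, with no AGGTGT or TAGGG) and the lone ZHX1 peak (chr5:119893025-119893252, downstream). Capitals mark AGGTGT, the core of the T-box site, or ACACCT where it stands on the minus strand.
Tbx5, Zhx1-KO hnRNPA1 peak: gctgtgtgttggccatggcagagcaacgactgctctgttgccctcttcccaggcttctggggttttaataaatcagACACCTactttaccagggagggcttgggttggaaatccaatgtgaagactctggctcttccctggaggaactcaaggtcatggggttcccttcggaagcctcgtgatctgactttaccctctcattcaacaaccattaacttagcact
Tbx5, 46C-Ctrl hnRNPA1 peak: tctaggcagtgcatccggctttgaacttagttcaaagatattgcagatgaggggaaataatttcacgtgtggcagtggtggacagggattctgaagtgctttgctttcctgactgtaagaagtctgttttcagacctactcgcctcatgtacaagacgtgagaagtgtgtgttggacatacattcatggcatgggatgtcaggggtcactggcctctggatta
Tbx5, 46C-Ctrl ZHX1 peak: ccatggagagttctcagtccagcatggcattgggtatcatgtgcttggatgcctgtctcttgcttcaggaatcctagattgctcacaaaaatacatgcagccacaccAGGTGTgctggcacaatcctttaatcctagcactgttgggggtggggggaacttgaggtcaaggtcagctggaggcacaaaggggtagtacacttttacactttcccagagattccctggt

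Motif letters in member peaks stood near or on either side of the shares over the whole lists. AGGTGT, searched on both strands, was in 8 of 34 Zhx1-KO hnRNPA1 member peaks (23.5%, beside 16.8% of all peaks of that list), 1 of 7 in 46C-Ctrl hnRNPA1 (14.3%, beside 15.7%) and 4 of 10 in ZHX1 (40.0%, beside 16.4%). AGGTGTGA, which contains AGGTGT, was in 1 member peak in Zhx1-KO hnRNPA1 (beside 1.38% of the list), 0 in 46C-Ctrl hnRNPA1 (beside 1.27%) and 0 in ZHX1 (beside 1.24%). TAGGG was in 12 of 34 in Zhx1-KO hnRNPA1 (35.3%, beside 35.3%), 4 of 7 in 46C-Ctrl hnRNPA1 (57.1%, beside 35.0%) and 2 of 10 in ZHX1 (20%, beside 34.5%). CCAAT, the site of NF-Y, a factor that ZHX1 is known to bind, was in 12 of 34 in Zhx1-KO hnRNPA1 (35.3%, beside 38.2%), 4 of 7 in 46C-Ctrl hnRNPA1 (57.1%, beside 36.3%) and 4 of 10 in ZHX1 (40.0%, beside 36.4%). A match is a run of letters and not a measured site.

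Tbx2 and Tbx4 lie in tandem on the plus strand of chromosome 11 (GRCm38), Tbx2 at 85832551 to 85841948 and Tbx4 at 85886422 to 85916097. Both carried hnRNPA1 peaks over exons in Zhx1-KO cells. Besides the exon 1 peak, a Zhx1-KO hnRNPA1 peak lay over coding sequence and intron of Tbx2 (85837130 to 85837549) and covered the whole of exon 5 (85837226 to 85837389). The remaining Tbx2 peak of that list (85851248 to 85851784) was intergenic, 18.9 kb from the Tbx2 start. No 46C-Ctrl hnRNPA1 peak was named for Tbx2, and the nearest one lay 19.4 kb from a Tbx2 start and was named for 2610027K06Rik.

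Over Tbx4 itself lay 4 Zhx1-KO hnRNPA1 peaks, 1 46C-Ctrl hnRNPA1 peak and 2 ZHX1 peaks. The Zhx1-KO peak at 85898492 to 85898727 touched coding sequence, a UTR and an intron, 1.84 kb from the nearest curated Tbx4 start. The other Zhx1-KO peaks in the gene were intronic, among them those at 85891107 to 85891330 and 85903459 to 85903783. The 46C-Ctrl hnRNPA1 peak (85888292 to 85888720) was intronic and 1.56 kb from an annotated Tbx4 start. Between them, the Zhx1-KO and 46C-Ctrl hnRNPA1 peaks in the gene came no closer than 2.39 kb. Downstream of Tbx4 stood 4 Zhx1-KO hnRNPA1 peaks at 29.8, 33, 38.7 and 47.4 kb from the nearest Tbx4 start, 1 46C-Ctrl hnRNPA1 peak at 22.1 kb and 1 ZHX1 peak at 27.5 kb.

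As a block, the territories of Tbx2 and Tbx4 were dense in peaks. A territory is the stretch of genome nearer to the start of a gene than to any other curated start. For this pair it ran over 128 kb (85832502 to 85960557), and the pair was singled out after its values were seen. It held 13 Zhx1-KO hnRNPA1 peaks, 3 46C-Ctrl hnRNPA1 peaks and 4 ZHX1 peaks. The density was 102 Zhx1-KO hnRNPA1 peaks per Mb (exact Poisson interval 54.1 to 174), against 42.5 per Mb in the 1 Mb on each side and 40.8 per Mb over chromosome 11. For 46C-Ctrl hnRNPA1 it was 23.4 per Mb (4.83 to 68.5), against 15.5 per Mb at the sides and 10.9 per Mb over the chromosome. ZHX1 stood at 31.2 per Mb (8.51 to 80.0), against 16 and 15.2 per Mb. The value was above that of the sides in all 3 lists, by 2.39 times in Zhx1-KO hnRNPA1, 1.51 times in 46C-Ctrl hnRNPA1 and 1.95 times in ZHX1, but only the Zhx1-KO hnRNPA1 interval lay wholly above it. Neighbouring Zhx1-KO peaks in the block were 3.04 to 19.9 kb apart, with a median of 8.08 kb.

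**Figure D2:**
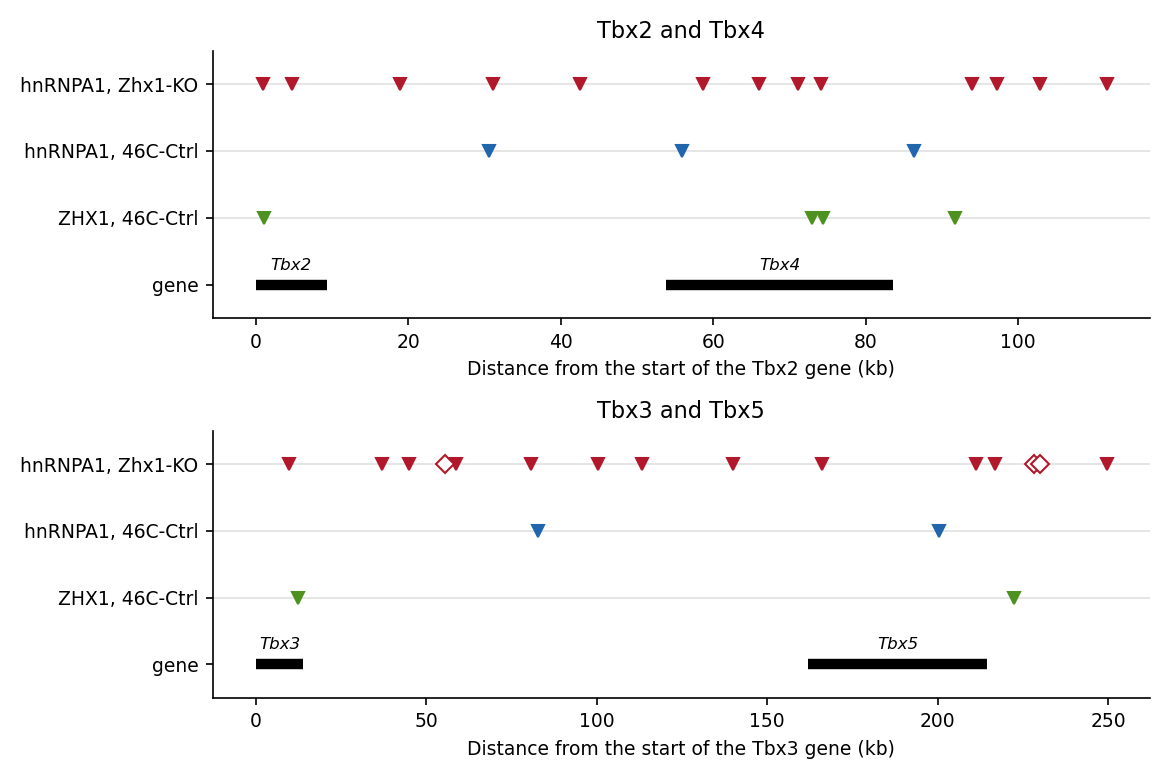
Peak centres along the Tbx2 and Tbx4 territories (top, kb from the start of Tbx2) and along a 327 kb stretch at Tbx3 and Tbx5 (bottom, kb from the start of Tbx3). The bottom stretch runs from the left end of the Tbx3 territory to the right end of the Tbx5 territory. It takes in the sequence between these territories, with peaks named Tbx3os2. Zhx1-KO hnRNPA1 stands above 46C-Ctrl hnRNPA1 and ZHX1, with the genes as black bars. Filled triangles are peaks of single-copy sequence and open diamonds peaks of multi-copy sequence. The Zhx1-KO row holds 13 peaks in the top map and 15 in the bottom map, against 3 and 2 in the 46C-Ctrl hnRNPA1 row.

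Tbx3 and Tbx5 are neighbours on the plus strand of chromosome 5, Tbx3 at 119670669 to 119684724 and Tbx5 at 119832668 to 119885219, with 148 kb between them. Zhx1-KO hnRNPA1 peaks were spread over the whole stretch, with fewer from the control lists, which are shorter. Between the outer ends of the genes (215 kb) lay 11 Zhx1-KO hnRNPA1 peaks, 2 46C-Ctrl hnRNPA1 peaks and 1 ZHX1 peak. The gap between the genes held 8 in Zhx1-KO hnRNPA1, 1 in 46C-Ctrl hnRNPA1 and 0 in ZHX1. The Zhx1-KO hnRNPA1 density over the stretch was 51.3 per Mb (25.6 to 91.7), against 29.0 per Mb at the sides and 20.5 per Mb over chromosome 5. The density at the sides was within this interval. The value was 9.32 per Mb (1.13 to 33.7) for 46C-Ctrl hnRNPA1, against 13.0 per Mb at the sides and 5.89 per Mb over the chromosome. For ZHX1 it was 4.66 per Mb (0.118 to 26), against 11.0 per Mb at the sides and 9.87 per Mb over the chromosome. The side and chromosome values lay within the interval of each control list. The Zhx1-KO hnRNPA1 peaks stood 3.08 to 45.1 kb apart, with a median of 20.9 kb.

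At Tbx3 the Zhx1-KO hnRNPA1 peak (119680364 to 119680724) covered coding sequence and intron, with 330 of its 361 bp over exons. It lay 9.31 kb from the nearest curated Tbx3 start but 0.295 kb from the start of a shorter annotated transcript. A ZHX1 peak (119683039 to 119683362) lay 2.31 kb beyond it, inside the Tbx3 gene, but was deposited under the name Tbx3os2, a long non-coding gene beside Tbx3. In all, 5 Zhx1-KO hnRNPA1 peaks, 1 46C-Ctrl hnRNPA1 peak and 1 ZHX1 peak carried that name and are not among the member peaks. Assigning each peak instead to the nearest start of a protein-coding gene gave Tbx3 18 Zhx1-KO hnRNPA1 peaks, 5 46C-Ctrl hnRNPA1 peaks and 5 ZHX1 peaks. The count for Tbx3 thus differs with the way peaks are named. Other counts moved too under this assignment. Eomes held 4 Zhx1-KO hnRNPA1 and 3 ZHX1 peaks, and Tbx20 held 4 ZHX1 peaks. Tbx4 held 13 Zhx1-KO hnRNPA1, 2 46C-Ctrl hnRNPA1 and 5 ZHX1 peaks, and Tbx2 held 2 Zhx1-KO hnRNPA1 peaks. The counts of Tbx1, Tbx5, Tbx6, Tbx18 and T stayed as they were by name.

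Of the 9 Zhx1-KO hnRNPA1 peaks named for Tbx5, 2 lay in the gene. The peak at 119836730 to 119836953 lay wholly over exons, in coding sequence and UTR, 2.18 kb from the nearest curated Tbx5 start and 0.687 kb from an annotated one. The other (119881796 to 119882117) was intronic, 47.3 kb from the start. Upstream stood 3 at 63.6, 50.7 and 24.2 kb from Tbx5, all nearer to the start of Gm5563 than to that of Tbx5. Downstream stood 4 at 52.7, 64.3, 65.9 and 85.7 kb from the start. The 46C-Ctrl hnRNPA1 peak was 10.7 kb from the nearest Zhx1-KO hnRNPA1 peak, and the ZHX1 peak 5.39 kb.

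Tbx18 lies on the minus strand of chromosome 9 (87702800 to 87731260) in a long stretch with few other genes. Its territory measured 535 kb, against a median of 42.5 kb over all protein-coding genes. None of its peaks lay in the gene. The Zhx1-KO hnRNPA1 peaks stood 35.5 to 288 kb from the start, the 46C-Ctrl hnRNPA1 peaks 100 to 232 kb, and the ZHX1 peaks at 20.8 and 38.8 kb, the farther one over an exon of Gm9541. Per length, Tbx18 was not rich in peaks. Its territory had 16.8 Zhx1-KO hnRNPA1 peaks per Mb (7.69 to 31.9), 5.61 46C-Ctrl hnRNPA1 peaks per Mb (1.16 to 16.4) and 3.74 ZHX1 peaks per Mb (0.453 to 13.5). Over chromosome 9 the values per Mb were 20.8 in Zhx1-KO hnRNPA1, 6.05 in 46C-Ctrl hnRNPA1 and 10.0 in ZHX1, each within the interval of its list.

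**Figure D3:**
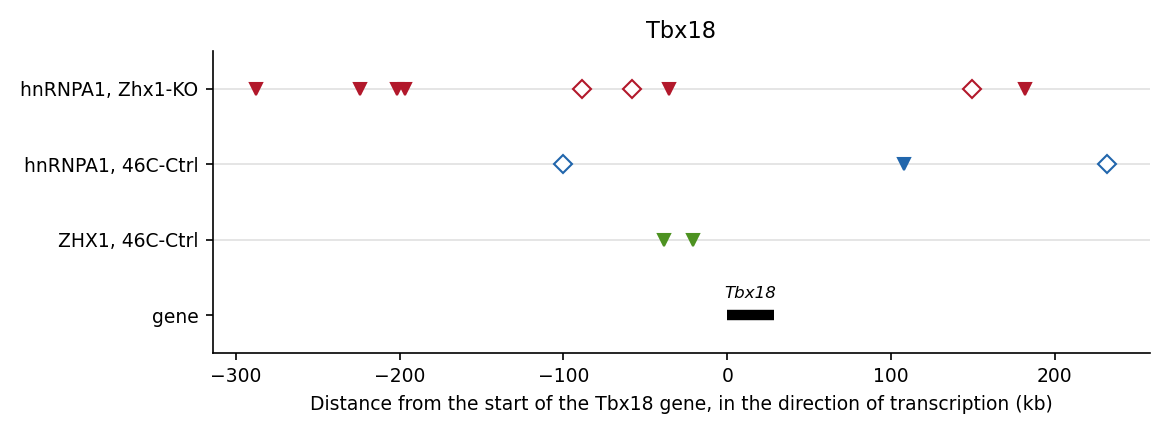
Peak centres in the Tbx18 territory by distance from the start of Tbx18 (kb, negative upstream), with Zhx1-KO hnRNPA1 above 46C-Ctrl hnRNPA1 and ZHX1 and the gene as a black bar. Open diamonds are peaks of multi-copy sequence, 3 of 9 in Zhx1-KO hnRNPA1 and 2 of 3 in 46C-Ctrl hnRNPA1, and no peak lies in the gene.

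Several peaks at Tbx18 and Tbx5 lay in repeated sequence. Peaks were called multi-copy where the median 32-base word in them occurred at least 2 times in the genome. This held for 5 of 34 Zhx1-KO hnRNPA1 member peaks (14.7%, beside 31.4% of that list), 2 of 7 in 46C-Ctrl hnRNPA1 (28.6%, beside 24.4%) and 0 of 10 in ZHX1 (beside 25.2%). All 7 were at Tbx5 or Tbx18, with median copy numbers of 477 to 10459. Without multi-copy peaks the counts were 29 in Zhx1-KO hnRNPA1 and 5 in 46C-Ctrl hnRNPA1. At Tbx18, 1 of the 3 46C-Ctrl hnRNPA1 peaks was then left. The authors state that reads mapping to more than 1 place were removed. Whether the deposited peaks were called on the reads left is not known, since the peak calling is not described. The part of repeated sequence in these calls was not tested.

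Taken by territory, density at the 10 members was not far from that of the genome. In 1146 kb the territories held 30 Zhx1-KO hnRNPA1 peaks, or 26.2 per Mb (17.7 to 37.4), against 19.5 per Mb over the genome. They held 7 46C-Ctrl hnRNPA1 peaks, or 6.11 per Mb (2.46 to 12.6), against 5.54, and 10 ZHX1 peaks, or 8.73 per Mb (4.19 to 16.1), against 8.78. The genome value fell within the interval of each list. Counted instead within 100 kb of a member gene, the density was higher in each list. It was 33.3 per Mb in Zhx1-KO hnRNPA1, 9.44 in 46C-Ctrl hnRNPA1 and 12.9 in ZHX1. No interval is given for that setting, so the nearness to the genome value holds for territories only.

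**Figure D4:**
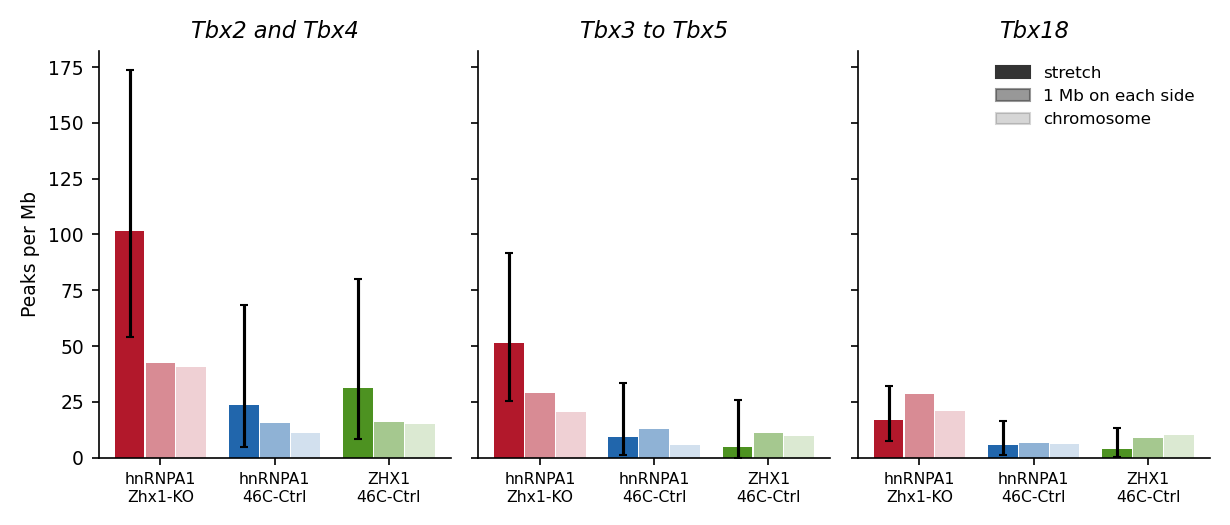
Peaks per Mb (vertical axis) in the Tbx2 and Tbx4 territories, the stretch from Tbx3 to Tbx5 and the Tbx18 territory (dark bars, with exact Poisson intervals), in the 1 Mb on each side (middle tone) and over the chromosome (light), for Zhx1-KO hnRNPA1, 46C-Ctrl hnRNPA1 and 46C-Ctrl ZHX1. The Zhx1-KO bar stands at 102 per Mb for Tbx2 and Tbx4, 51.3 for Tbx3 to Tbx5 and 16.8 for Tbx18.

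Peaks at start sites were found for Tbx2, Tbx3, Tbx4 and Tbx5 in Zhx1-KO cells. With a promoter peak taken as a peak centre within 2 kb of any annotated start of the gene, 4 of 10 members had one in Zhx1-KO hnRNPA1, beside 20.2% of all protein-coding genes. In 46C-Ctrl hnRNPA1 it was 1 of 10 (Tbx4, the intronic peak above), beside 6.44% of all genes, and in ZHX1 1 of 10 (Tbx2), beside 11.6% of all genes. All of these peaks lay inside the gene, downstream of the first start of the gene. Measured from curated starts, the Zhx1-KO peaks lay 0.851 kb away at Tbx2 and 1.84 kb for the nearer at Tbx4. They lay 9.31 kb away at Tbx3 and 2.18 kb at Tbx5, so the count depends on the starts used.

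Of the 51 member peaks, 32 were intergenic, 4 lay in another gene and 15 in the named gene, 6 of these over one of its exons. Intergenic peaks made up 23 of 34 in Zhx1-KO hnRNPA1 (67.6%, beside 49.6% of that list), 5 of 7 in 46C-Ctrl hnRNPA1 (71.4%, beside 47.5%) and 4 of 10 in ZHX1 (40%, beside 48.0%). Tbx18 supplied 13 of the 32, and without it the counts were 14 of 25 in Zhx1-KO hnRNPA1, 2 of 4 in 46C-Ctrl hnRNPA1 and 3 of 8 in ZHX1. In 47 of 51 the named gene was also the nearest curated start, as it was for 90.9% of all Zhx1-KO hnRNPA1 peaks, 90.8% of 46C-Ctrl hnRNPA1 peaks and 91.1% of ZHX1 peaks. The nearest start of the named gene lay at a median of 37.1 kb from Zhx1-KO hnRNPA1 peaks, 36.3 kb from 46C-Ctrl hnRNPA1 peaks and 15.9 kb from ZHX1 peaks, beside 38.4, 33.6 and 34.8 kb over all peaks of those lists. Median widths of member peaks were 262 bp in Zhx1-KO hnRNPA1 (list 271 bp), 223 bp in 46C-Ctrl hnRNPA1 (list 257 bp) and 237.5 bp in ZHX1 (list 259 bp). The narrowest width of its list was found in 11 of 34 Zhx1-KO hnRNPA1 member peaks (224 bp, 28.0% of the list), 5 of 7 in 46C-Ctrl hnRNPA1 (223 bp, 33.7%) and 5 of 10 in ZHX1 (228 bp, 36.4%). Median GC content was 51.3% in Zhx1-KO hnRNPA1 (list 48.3%), 47.5% in 46C-Ctrl hnRNPA1 (list 46.7%) and 47.1% in ZHX1 (list 46.3%).

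By deposited name, Tbx1, Tbx20 and Eomes had at most 1 peak in each list. At Tbx1 (chromosome 16, minus strand, 18580979 to 18590671), the Zhx1-KO hnRNPA1 peak (18601171 to 18601472) and the ZHX1 peak (18601596 to 18601842) were 123 bp apart, both upstream of Tbx1 in an intron of 4930588K23Rik. At Tbx20 (chromosome 9, minus strand, 24718138 to 24774303), the Zhx1-KO hnRNPA1 peak (24783468 to 24783691) lay 9.28 kb upstream in an intron of Gm29824, and the ZHX1 peak (24827772 to 24827999) 53.6 kb upstream. The ZHX1 peak at Eomes (chromosome 9, 118485528 to 118485755) lay wholly within a UTR, while the nearest Zhx1-KO hnRNPA1 peak was 37.7 kb from an Eomes start and the nearest 46C-Ctrl hnRNPA1 peak 161 kb.

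The territories of T, Tbx6 and Tbx3 held no peak in any list. The peak named for Tbx3 lay nearer to the curated start of Tbx3os1, so it did not enter the density over all territories. For T (chromosome 17, 8434423 to 8442496), the nearest Zhx1-KO hnRNPA1 peak was 42.9 kb from a start, the nearest 46C-Ctrl hnRNPA1 peak 38.0 kb and the nearest ZHX1 peak 152 kb. For Tbx6 (chromosome 7, 126781483 to 126785560), a short gene among close neighbours, it was 15.9 kb for Zhx1-KO hnRNPA1 (named for Gdpd3), 8.36 kb for 46C-Ctrl hnRNPA1 (Ppp4c) and 39.2 kb for ZHX1 (Fam57b). The territory of T (68.7 kb) held 0 peaks in each list, which allows a density of up to 53.7 per Mb (exact Poisson bound), above the density of chromosome 17 (21.0 in Zhx1-KO hnRNPA1, 6.55 in 46C-Ctrl hnRNPA1 and 10.8 in ZHX1), so an absence could not be read from it.

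Peaks of the lists rarely overlapped at T-box genes, as they rarely did elsewhere. At least 1 bp was shared with a peak of another list by 1 of 34 Zhx1-KO hnRNPA1 member peaks, beside 3.02% of that list, by 0 of 7 46C-Ctrl hnRNPA1 member peaks, beside 7.73%, and by 1 of 10 ZHX1 member peaks, beside 6.5%. The shared pair was the one printed at Tbx2. Within 1 kb of a ZHX1 peak stood 3 of 34 Zhx1-KO hnRNPA1 member peaks (at Tbx1, Tbx2 and Tbx4), beside 4.75% of that list, and 0 of 7 46C-Ctrl hnRNPA1 member peaks, beside 7.56%. Within 1 kb of a 46C-Ctrl hnRNPA1 peak stood 1 of 34 Zhx1-KO hnRNPA1 member peaks (at Tbx4), beside 3.09%. Seen from ZHX1, 4 of 10 member peaks stood within 1 kb of a Zhx1-KO hnRNPA1 peak, and the share over that list is not given here. The median gap from ZHX1 member peaks to Zhx1-KO hnRNPA1 was 2.43 kb, beside 12.9 kb over all ZHX1 peaks. To 46C-Ctrl hnRNPA1 it was 21.1 kb, beside 47.5 kb. The nearest approach of 46C-Ctrl hnRNPA1 to ZHX1 at any member was 5.11 kb, downstream of Tbx4. At no member did a 46C-Ctrl hnRNPA1 peak overlap a ZHX1 peak (0 of 7, beside 4.12% of that list).

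**Figure D5:**
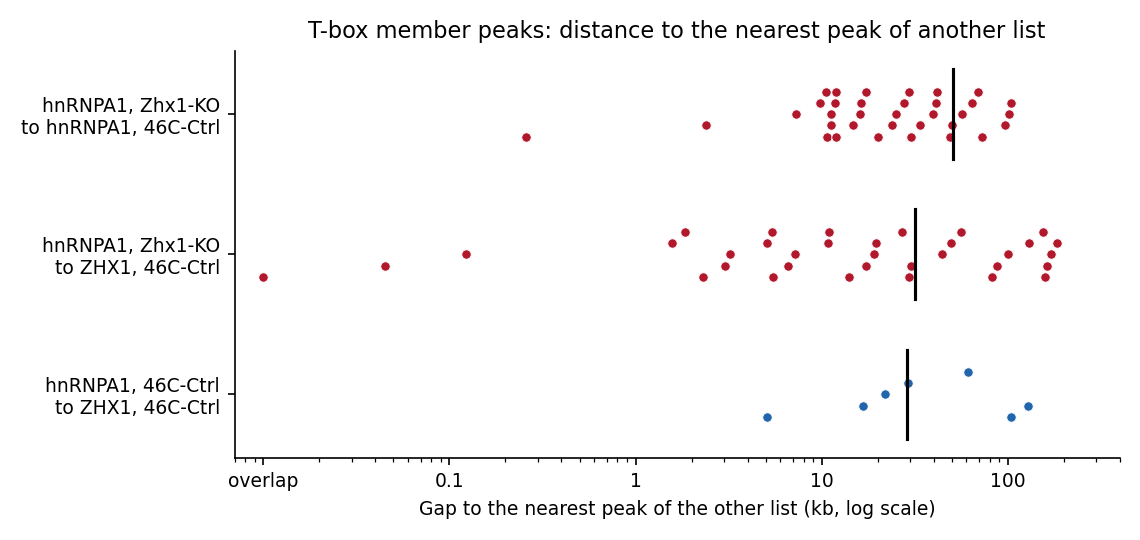
Gap from each T-box member peak to the nearest peak of another list (horizontal axis, kb, log scale, overlapping peaks at the left end), for Zhx1-KO hnRNPA1 to 46C-Ctrl hnRNPA1, Zhx1-KO hnRNPA1 to ZHX1, and 46C-Ctrl hnRNPA1 to ZHX1. Points are peaks, and black bars are the median over all peaks of the list, 50.9, 31.8 and 28.7 kb, beside medians of the member peaks of 24.4, 18.3 and 29.1 kb.

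Among 7 further T-box genes (Tbx10, Tbx15, Tbx19, Tbx21, Tbx22, Tbr1 and Mga), 4 were named in Zhx1-KO hnRNPA1 (beside 60.1% of all protein-coding genes), 3 in 46C-Ctrl hnRNPA1 (beside 32.6%) and 5 in ZHX1 (beside 42.2%). Their peaks numbered 7 in Zhx1-KO hnRNPA1, 7 in 46C-Ctrl hnRNPA1 and 10 in ZHX1. At Tbx21, a factor of T helper cells, a 46C-Ctrl hnRNPA1 peak (chromosome 11, 97093332 to 97093554) shared 64 bp with a ZHX1 peak (97093133 to 97093395), an overlap that none of the 10 members had. Among 23 genes known as partners or targets of T-box factors, 16 were named in Zhx1-KO hnRNPA1, 6 in 46C-Ctrl hnRNPA1 and 13 in ZHX1, beside the same shares of all genes. Their peaks numbered 63 in Zhx1-KO hnRNPA1, 7 in 46C-Ctrl hnRNPA1 and 43 in ZHX1. Of their 7 46C-Ctrl hnRNPA1 peaks, 2 overlapped a ZHX1 peak, beside 4.12% of that list. These lay at Foxa2 (223 bp), a factor of the endoderm and node, and at Mesp2 (169 bp in multi-copy sequence), a factor of the presomitic mesoderm. At Mesp2 a Zhx1-KO hnRNPA1 peak lay there too, sharing 184 bp with the 46C-Ctrl hnRNPA1 peak and 267 bp with the ZHX1 peak. The pairs at Foxa2 and Tbx21 shared no base with a Zhx1-KO hnRNPA1 peak.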

How the data were processed

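The authors trimmed reads with cutadapt 1.18 (reads under 50 bases dropped) and aligned the rest to GRCm38 (GENCODE M19) by Bowtie2 2.3.5.1. They removed unmapped, non-unique and duplicate reads. BWA 0.7.12-r1039 and deepTools 3.3.0 are also named in the submitters' processing notes. For peak calling, the tool and threshold were not given in the sources used here, nor was the depth. The deposited lists hold positions, a gene name and a strand that is always plus, and no score. The 2 input libraries were not used here. Starts were read as 0-based and are printed 1-based. Positions were compared with GRCm38 (RefSeq) and GENCODE M21 with Python 3.11.15, pandas 2.3.3, scipy 1.17.1 and numba 0.67.0, tested on simulated data. All 10 members are named, with all their peaks. The members, gene lists and alternatives were chosen with earlier results of these data known. Intervals are at 95%. Alternatives were a width of at least 300 bp, other promoter reaches (1 and 5 kb), overlap rules, naming rules, copy number and lists of equal length. Densities were also taken within 100 kb of member genes. A sequence and the pair of peaks it belongs to are not reported here.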

Additional observations from a re-analysis of the deposited data

How the results depend on the processing

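The peak lists hold no scores, so width stood in for a stricter threshold. Of 49 alternatives, 25 stayed within 1.5 times the value given (densities within their interval) and 24 moved. For peaks of at least 300 bp, member peaks numbered 13 in Zhx1-KO hnRNPA1, 1 in 46C-Ctrl hnRNPA1 and 3 in ZHX1, and their hnRNPA1 ratio was 13 (13 against 1). Members named were then 1 in 46C-Ctrl hnRNPA1 and 2 in ZHX1, and promoter peaks in Zhx1-KO hnRNPA1 were at 1 member. For the alternatives in this section, the matching shares over all genes or peaks are not given here. With the Zhx1-KO list limited to the 14662 widest peaks (333 bp or more), 8 member peaks were left against 7 in 46C-Ctrl hnRNPA1, a ratio of 1.14, and ZHX1 limited likewise named 4 members. That setting shortened the Zhx1-KO list and removed its narrow peaks together, while the 46C-Ctrl hnRNPA1 list kept its own, and the cause of the move was not tested. Naming by the nearest protein-coding start gave 57 member peaks in Zhx1-KO hnRNPA1, 11 in 46C-Ctrl hnRNPA1 and 22 in ZHX1. A peak over the gene body was found for 4 members in Zhx1-KO hnRNPA1 and 4 in ZHX1. Overlap of 50% of both peaks left 0 in Zhx1-KO hnRNPA1 and 0 in ZHX1, and a gap of at most 1 kb gave 4 in Zhx1-KO hnRNPA1, 1 in 46C-Ctrl hnRNPA1 and 4 in ZHX1. A promoter reach of 1 kb gave 0 members in 46C-Ctrl hnRNPA1 and 0 in ZHX1, and 5 kb gave 2 in ZHX1. Widening the Tbx3 to Tbx5 stretch by 100 kb on each side gave 18 Zhx1-KO hnRNPA1 and 3 ZHX1 peaks. Leaving out multi-copy peaks, chosen after seeing the data, gave a ratio of 5.8, and counting peaks named Tbx3os2, also chosen after seeing the data, gave 39, 8 and 11 member peaks in Zhx1-KO hnRNPA1, 46C-Ctrl hnRNPA1 and ZHX1. No paired analysis was possible because each group has 1 library, and no replicate could be left out.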
